A study of Homo sapiens with 6 samples.

Results

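Aminoacyl-tRNA synthetases are the enzymes that attach each amino acid to its matching tRNA, the step that sets the meaning of the genetic code during translation. Human cells keep separate enzymes, encoded by separate nuclear genes, for the cytosol and for mitochondria, with few exceptions. Several of the cytosolic enzymes are held together in the multi-synthetase complex. By their fold, the catalytic domains of synthetases fall into class I or class II. The genes were taken from the GENCODE annotation of GRCh37 by symbol, as the protein coding genes whose names follow the synthetase pattern of an amino acid letter, ARS and a closing 1 or 2, together with EPRS1, FARSA and FARSB. This gave 37 of 20162 protein coding genes, 20 for cytosolic enzymes (names ending in 1, A or B) and 17 for mitochondrial enzymes (names ending in 2). GARS1 and KARS1, which make both the cytosolic and the mitochondrial form of their enzyme, were counted as cytosolic.

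Native ChIP-Seq (nChIP-Seq) lists of enriched regions were available for U2OS cells, a human osteosarcoma line, all grown to overconfluence. The ProMMP2-3xHA cells stably carry the pro-form of the matrix metalloproteinase MMP-2 with a C-terminal HA tag in addition to their own MMP-2, and the WT cells carry no tag. HA nChIP-Seq of ProMMP2-3xHA cells had 3 replicates, each called against an HA control immunoprecipitation, and 1 merged list with no signal values. H3K4me3, the trimethylated lysine 4 of histone H3 found at active promoters, had 1 library in ProMMP2-3xHA cells and 1 in WT cells, so nothing between the lines could be tested. No list of the HA library of WT cells and no RNA level entered the comparisons. The total reads of each library were not given in the lists. Fragment numbers could be recovered from the deposited enrichment and p-values for 93.3% to 94.2% of HA summits, and the median summit held 49, 45 and 41 fragments in replicates 1, 2 and 3. At synthetase TSSs, 44 of 47 summits gave a fragment number, which ran from 26 to 155. A summit shared by 2 synthetase genes was counted for each. A gene was counted as having a peak where a region came within 1 kb of the TSS of its canonical transcript.

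Promoter sequences of 6 loci are shown first, since the HA and H3K4me3 regions described below lie on them. They are from GRCh37 (hg19), run 5′ to 3′ on the strand of the gene from 200 bases before the canonical TSS to 29 bases after it, and carry in capitals the letters of the searched motifs on either strand. GARS1 (glycyl-tRNA synthetase, chr7:30634294-30634523, plus strand) and AARS1 (alanyl-tRNA synthetase, chr16:70323380-70323609, minus strand) are shown as cytosolic genes that both hold the C/EBP-ATF element, the first with an HA peak in every replicate and the second with none. YARS2 (mitochondrial tyrosyl-tRNA synthetase, chr12:32908802-32909031, minus strand) is shown as the gene with the highest mean HA enrichment among those with a peak in every replicate, and LARS2 (mitochondrial leucyl-tRNA synthetase, chr3:45429868-45430097, plus strand) as a mitochondrial gene with no HA peak. WARS1 (tryptophanyl-tRNA synthetase, chr14:100841655-100841884, minus strand) held the only TATAAA among the synthetase promoters between 250 bases before and 50 bases after the TSS. The last sequence is the whole space between the divergent TSSs of HARS1 and HARS2 (cytosolic and mitochondrial histidyl-tRNA synthetase, chr5:140070956-140071039, plus strand), 84 bases that lie under 1 shared HA peak.
GARS1: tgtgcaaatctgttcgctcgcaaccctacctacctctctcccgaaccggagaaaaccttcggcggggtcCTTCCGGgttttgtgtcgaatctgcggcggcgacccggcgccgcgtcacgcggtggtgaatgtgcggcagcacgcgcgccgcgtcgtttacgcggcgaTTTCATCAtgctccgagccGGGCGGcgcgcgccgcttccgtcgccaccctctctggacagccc
AARS1: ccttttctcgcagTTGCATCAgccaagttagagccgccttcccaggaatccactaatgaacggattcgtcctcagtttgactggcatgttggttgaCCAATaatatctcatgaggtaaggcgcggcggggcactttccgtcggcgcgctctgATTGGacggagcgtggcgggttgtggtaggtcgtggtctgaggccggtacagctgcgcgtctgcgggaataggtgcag
YARS2: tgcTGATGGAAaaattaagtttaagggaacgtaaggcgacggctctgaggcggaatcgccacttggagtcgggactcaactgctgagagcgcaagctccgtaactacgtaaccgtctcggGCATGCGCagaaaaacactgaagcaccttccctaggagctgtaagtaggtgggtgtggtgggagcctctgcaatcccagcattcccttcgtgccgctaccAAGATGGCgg
LARS2: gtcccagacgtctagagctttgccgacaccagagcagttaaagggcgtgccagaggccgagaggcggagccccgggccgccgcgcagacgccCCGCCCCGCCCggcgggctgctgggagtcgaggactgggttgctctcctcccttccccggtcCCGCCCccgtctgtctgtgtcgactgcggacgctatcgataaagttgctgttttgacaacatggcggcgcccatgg
WARS1: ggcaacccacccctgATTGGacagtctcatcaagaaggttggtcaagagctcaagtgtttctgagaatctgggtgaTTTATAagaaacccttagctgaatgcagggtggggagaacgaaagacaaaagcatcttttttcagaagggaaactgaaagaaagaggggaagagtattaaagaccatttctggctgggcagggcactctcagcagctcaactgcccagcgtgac
HARS1 to HARS2: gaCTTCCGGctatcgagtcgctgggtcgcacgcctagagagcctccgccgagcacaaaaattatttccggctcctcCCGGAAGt

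Motifs were counted on both strands between 250 bases before and 50 bases after the TSS, a gene counting once however many matches it had and whether or not matches overlapped. The C/EBP-ATF element TGATGNAA, the kind of element bound by ATF4 in the response to amino acid shortage, lay in 8 of 20 cytosolic promoters and 1 of 17 mitochondrial promoters, against 2.49% of all coding promoters. The cytosolic promoters with it were those of AARS1, CARS1, GARS1, IARS1, MARS1, NARS1, TARS1 and YARS1, and the mitochondrial one was that of YARS2. Of those 8 cytosolic genes, 3 had a merged HA peak (GARS1, NARS1 and TARS1), and of the 12 cytosolic genes without the element, 4 had one. The NRF1 letters GCATGCGC, named for a factor of nuclear genes for mitochondrial proteins, were in 0 of 20 cytosolic and 3 of 17 mitochondrial promoters (MARS2, VARS2 and YARS2), against 4.26% of all. The ETS letters CCGGAAG were in 7 of 20 and 7 of 17, against 14.0% of all. They stand at both ends of the space between HARS1 and HARS2 printed above.

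The SP/KLF and NF-Y letters were common in synthetase promoters and in coding promoters at large. GGGCGG (SP/KLF) was in 14 of 20 cytosolic and 14 of 17 mitochondrial promoters and in 60.9% of all. CCAAT (NF-Y) was in 9 and 10, against 35.9%. AAGATGGC (YY1) was in 3 and 3, against 4.01%, and CACGTG (E-box) in 2 and 2, against 8.74%. TATAAA was in 1 cytosolic promoter and 0 mitochondrial ones, against 9.80%, and in 4 and 2 with a window of 500 bases before to 100 after, against 18.8%. Median GC content was 62.0% for cytosolic, 62.3% for mitochondrial and 63.3% for all coding promoters. Over all coding genes, promoters with a merged HA peak had a median GC content of 67.0%. That value was not limited to promoters with H3K4me3. Among synthetase promoters the median was 61.7% (range 52.3 to 67.3%) in the 17 with a merged HA peak. It was 63.5% (range 46.7 to 79.0%) in the 20 without, and these ranges overlap. A match gives only the presence of letters in these windows.

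Every synthetase TSS had H3K4me3 within 1 kb, but only some of them carried a merged peak of HA-tagged MMP-2. All 37 genes had an H3K4me3 region in the ProMMP2-3xHA list and all 37 in the WT list, against backgrounds of 60.5% and 64.3% of coding TSSs. A merged HA peak lay at 17 of 37 TSSs, or 45.9% (95% exact binomial interval 29.5 to 63.1%). Among all coding TSSs the merged HA share was 30.0%, and among the 12149 coding TSSs with H3K4me3 in both lists it was 49.2%, which lies inside the interval of the synthetase genes. Intervals of shares are Clopper-Pearson intervals and cover counting error only, since neighbouring genes and genes of 1 family are not independent draws.

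Mitochondrial genes had HA peaks more often than cytosolic genes in each replicate, but the spread between replicates was wide. In the merged list, 7 of 20 cytosolic genes (35.0%, interval 15.4 to 59.2%) and 10 of 17 mitochondrial genes (58.8%, interval 32.9 to 81.6%) had a peak, and these intervals overlap. Both intervals hold the 49.2% of coding TSSs with H3K4me3 in both lists. The share of all coding TSSs was 30.0%. In replicate 1, 2 of 20 cytosolic genes (10.0%) and 7 of 17 mitochondrial genes (41.2%) had a peak. The backgrounds were 21.8% of all coding TSSs and 35.7% of those with H3K4me3 in both lists. In replicate 2 the counts were 8 of 20 (40%) and 9 of 17 (52.9%), with backgrounds of 29.5% and 48.1%. In replicate 3 they were 11 of 20 (55.0%) and 10 of 17 (58.8%), with backgrounds of 30.4% and 49.9%. The gap was thus wide in replicate 1 and small in replicate 3. Replicate 1 also had the shortest list, with 8176 summits against 13439 and 12787 genome-wide, and the part of this in the gap was not tested. The cytosolic minus mitochondrial share was −31.2, −12.9 and −3.82 percentage points, a mean of −16.0 ± 13.9 (SD, n = 3). An exact two-sided sign permutation over the replicates gave p = 0.25, the smallest that 3 replicates allow, so the design cannot pass a threshold of 0.05. Without replicate 1 the mean was −8.38 points. It was −28.5 points from the 5′ end of the gene, and with the TSS required inside the peak it shrank to −1.27 ± 7.07 points (SD, n = 3, exact permutation p = 0.75). The study describes the HA replicates as independent biological experiments.

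**Figure D1:**
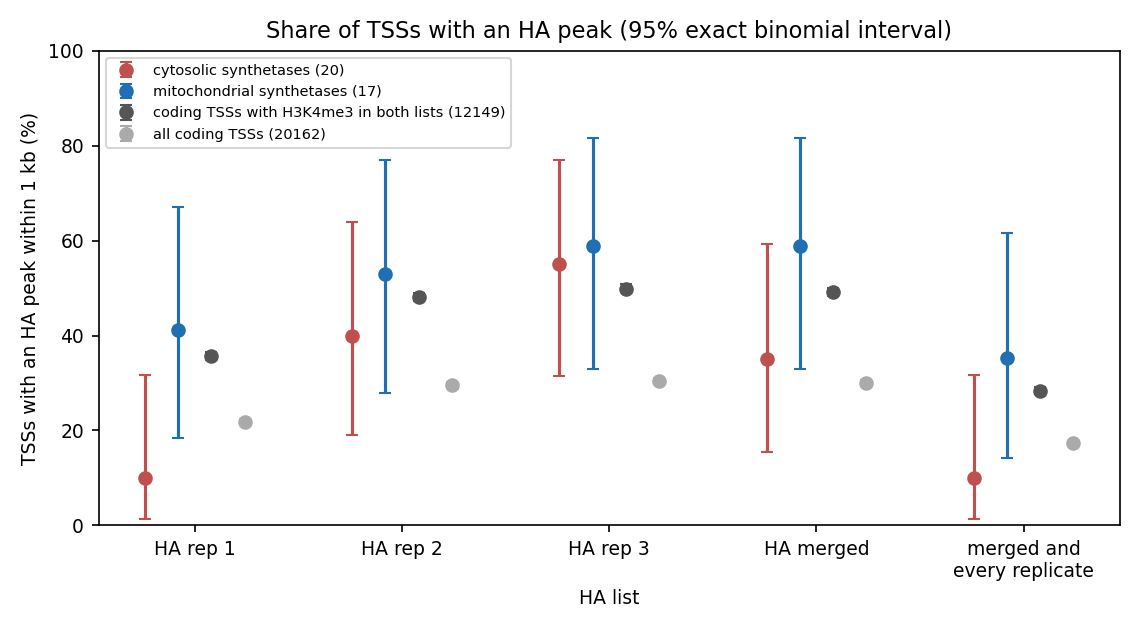
Share of TSSs (percent, vertical axis) with an HA peak within 1 kb in each HA list (horizontal axis), for the 20 cytosolic genes, the 17 mitochondrial genes, all 20162 coding TSSs and the 12149 coding TSSs with H3K4me3 in both lists. Points are shares and bars are 95% exact binomial intervals. The cytosolic share sits below the mitochondrial share in every list, with overlapping intervals, and moves from 10.0% in replicate 1 to 55.0% in replicate 3.

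Asking for a merged peak and a peak in every replicate left 8 of 37 genes, or 21.6% (interval 9.83 to 38.2%), and 13.5% and 10.8% at q-values of 0.01 and 0.001. The background was 17.3% of all coding TSSs and 28.4% of those with H3K4me3 in both lists. The 8 genes were 2 of 20 cytosolic (10.0%, interval 1.23 to 31.7%) and 6 of 17 mitochondrial (35.3%, interval 14.2 to 61.7%). In the other direction, 26 of 37 genes (14 cytosolic and 12 mitochondrial) had a peak in at least 1 of the 4 HA lists, where 37.8% of all coding TSSs and 61.6% of those with H3K4me3 in both lists did. The interval of the synthetase share, 53.0 to 84.1%, holds the latter. The remaining 11 had none in any list. These were AARS1, EPRS1 (the fused glutamyl-prolyl enzyme), KARS1 (lysyl), LARS1 (leucyl), QARS1 (glutaminyl) and WARS1 (tryptophanyl) among the cytosolic genes, and CARS2 (cysteinyl), FARS2 (phenylalanyl), LARS2 (leucyl), MARS2 (methionyl) and NARS2 (asparaginyl) among the mitochondrial genes. The lists hold called regions only, so these genes had no called enrichment, which does not set their level at 0.

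The 6 mitochondrial genes with a peak in every replicate had mean enrichments of 4.54 to 6.55. Fold enrichment here is the value MACS2 gives at the summit of a peak over its local background, and where a gene had several summits the strongest was taken. YARS2, which charges mitochondrial tRNA with tyrosine, had 5.97, 6.69 and 7.0-fold across replicates 1, 2 and 3, averaging 6.55 ± 0.53 (SD, n = 3). Its merged peak of 853 bp (chr12:32908316-32909168) covered the TSS and was centred 89 bp downstream in coding exon 1. Its values stayed close to each other across the replicates. IARS2 (isoleucyl) had 6.93, 5.85 and 4.44-fold (5.74 ± 1.25, SD, n = 3) over a peak of 314 bp centred 225 bp downstream in coding exon 1 (chr1:220267543-220267856). IARS2 was highest in replicate 1, where YARS2 was lowest.

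SARS2 (seryl) had 5.00, 4.31 and 5.12-fold (4.81 ± 0.44, SD, n = 3). VARS2 (valyl) had 4.79, 7.03 and 2.54-fold (4.79 ± 2.24, SD, n = 3), the largest spread among the 8 genes, at 116, 155 and 58 fragments. Its replicate 2 summit held more fragments than any other synthetase summit, while its fold in replicate 3 was at the 0.196 percentile of TSS peaks of that replicate. WARS2 (tryptophanyl) had 3.29, 6.14 and 4.21-fold (4.54 ± 1.45, SD, n = 3). The merged peaks of SARS2 (chr19:39421199-39421799) and WARS2 (chr1:119683056-119683728) were centred 96 and 116 bp upstream of their TSSs, outside the canonical transcripts, and that of VARS2 (chr6:30882081-30882666) was centred in intron 1.

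Only 2 cytosolic genes had a peak in every replicate. GARS1 had 3.48, 5.96 and 5.78-fold, a mean of 5.08 ± 1.39 (SD, n = 3), with a merged peak of 566 bp over the TSS (chr7:30634154-30634719). TARS1 (threonyl) had 4.60, 4.24 and 3.66-fold, a mean of 4.17 ± 0.47 (SD, n = 3), with a merged peak of 737 bp over the TSS (chr5:33440551-33441287). Their means overlapped those of WARS2, SARS2 and VARS2 within the replicate SDs. GARS1 serves both compartments, while KARS1, the other gene that does, had no HA peak in any list.

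**Figure D2:**
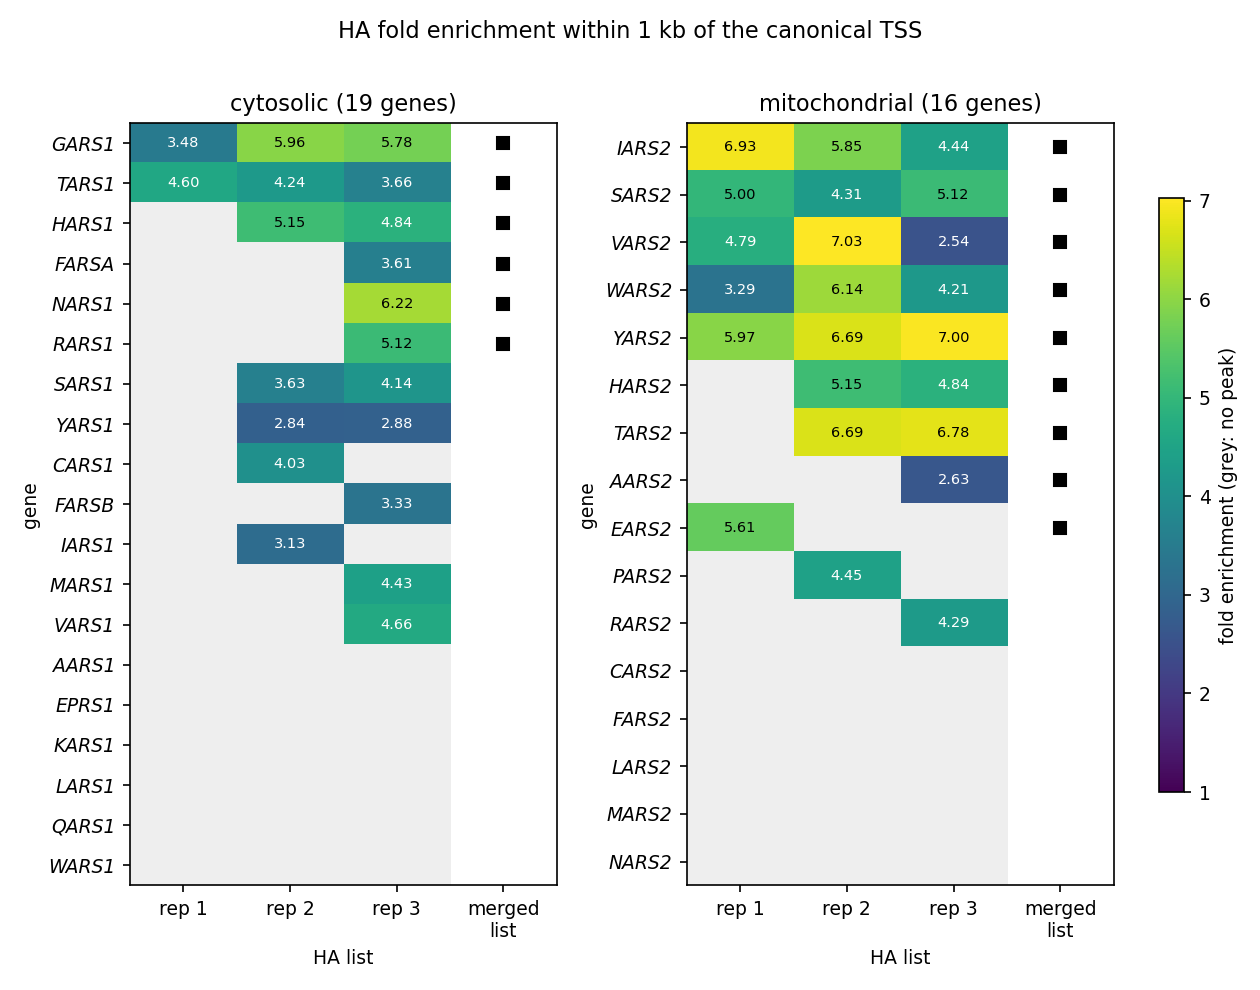
HA fold enrichment at the strongest summit within 1 kb of the canonical TSS for the genes shown (rows) in HA replicates 1 to 3 (columns), with grey for no peak and a black square where the merged list had a peak. Colour runs from 1-fold to the highest value. The panels show 19 cytosolic and 16 mitochondrial genes. The 5 mitochondrial genes at the top of their panel are filled in all 3 replicates, as are GARS1 and TARS1 in the cytosolic panel, and the bottom 6 cytosolic and 5 mitochondrial genes are empty throughout.

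The other 9 genes with a merged peak were missing from 1 or 2 replicates. HARS1 and HARS2 shared 1 peak of 483 bp (chr5:140070759-140071241), with 5.15-fold in replicate 2 and 4.84-fold in replicate 3. TARS2 (mitochondrial threonyl) had 6.69 and 6.78-fold in the same replicates, close to those of YARS2, and no peak in replicate 1. Its merged peak covered 421 bp (chr1:150459700-150460120). EARS2 (mitochondrial glutamyl) was called in replicate 1 alone, at 5.61-fold. Another 4 were called in replicate 3 alone, where NARS1 (asparaginyl) had 6.22-fold, RARS1 (arginyl) 5.12-fold, FARSA (the alpha subunit of phenylalanyl-tRNA synthetase) 3.61-fold and AARS2 (mitochondrial alanyl) 2.63-fold. AARS2, at 60 fragments, stood at the 0.294 percentile of TSS peaks of replicate 3, so a low fold did not go with few fragments there.

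Another 9 genes had a peak in a replicate but none in the merged list. SARS1 (seryl) had 3.63 and 4.14-fold in replicates 2 and 3, and YARS1 (tyrosyl) had 2.84 and 2.88-fold in the same replicates, at the 1.14 and 0.751 percentiles of TSS peaks. In replicate 2 alone, CARS1 (cysteinyl) had 4.03-fold, IARS1 (isoleucyl) 3.13-fold and PARS2 (mitochondrial prolyl) 4.45-fold. In replicate 3 alone, VARS1 (valyl) had 4.66-fold, MARS1 (methionyl) 4.43-fold, RARS2 (mitochondrial arginyl) 4.29-fold and FARSB (the beta subunit of phenylalanyl-tRNA synthetase) 3.33-fold. Every one of these values was below the median over all TSS peaks of its replicate, which was 4.97, 5.68 and 5.01-fold in replicates 1, 2 and 3.

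Where both compartments had a called peak, mitochondrial enrichments were higher at the median in each replicate. The cytosolic median was 4.04-fold over 2 genes, 4.0-fold over 8 and 4.43-fold over 11 in replicates 1, 2 and 3. The mitochondrial median was 5.24-fold over 7 genes, 5.85-fold over 9 and 4.64-fold over 10. The log2 ratio of cytosolic to mitochondrial medians was −0.38, −0.55 and −0.07, a mean of −0.33 ± 0.24 (SD, n = 3), with p = 0.25 in an exact two-sided sign permutation, again the smallest possible. The mean was −0.69 with the TSS inside the peak and −0.21 at a q-value of 0.001. Over all 37 genes the medians of called peaks were 5.00, 5.15 and 4.44-fold, so the synthetase genes together were not above the median of all TSS peaks in replicates 2 and 3.

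Set side by side by amino acid, 14 amino acids had 1 cytosolic and 1 mitochondrial gene. For 3 of them, histidine and threonine included, both genes had a merged HA peak, the histidine pair through its shared peak. For 6 amino acids the mitochondrial gene alone had one, namely AARS2, IARS2, SARS2, VARS2, WARS2 and YARS2. For 2 it was the cytosolic gene alone, NARS1 and RARS1. For cysteine, leucine and methionine neither gene had one. Of the 6 mitochondrial genes, 5 had peaks in every replicate, while NARS1 and RARS1 rested on replicate 3 alone. EPRS1 had no merged peak, while of the mitochondrial genes for its amino acids EARS2 had one and PARS2 did not. FARSA had a merged peak, FARSB and FARS2 did not.

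The multi-synthetase complex holds 8 of the cytosolic enzymes. Among these, which include EPRS1, IARS1, KARS1, LARS1, MARS1, QARS1 and RARS1, 2 genes had a merged peak (25.0%, interval 3.19 to 65.1%) and 0 had a peak in every replicate, a count that allows a share of up to 36.9% (upper bound of the exact interval). The other 12 cytosolic genes had a merged peak in 5 cases (41.7%, interval 15.2 to 72.3%) and in every replicate in 2. These intervals overlap and both hold the 30.0% of all coding TSSs and the 49.2% of H3K4me3-marked ones, and the difference was not tested. In any HA list, 4 of the 8 had a peak, against 37.8% of all coding TSSs and 61.6% of H3K4me3-marked ones. By catalytic class, 6 of 19 class I genes (31.6%, interval 12.6 to 56.6%) and 11 of 18 class II genes (61.1%, interval 35.7 to 82.7%) had a merged peak. EPRS1, whose fused enzyme serves glutamate and proline, was counted in class I, while PARS2 was counted in class II. The class intervals overlap and both hold the 49.2% of H3K4me3-marked coding TSSs. The class II interval lies above the 30.0% of all coding TSSs, and the difference between classes was not tested. A split by class and compartment, chosen after the values were seen, gave RARS1 as the only 1 of 10 cytosolic class I genes with a merged peak (10.0%, interval 0.253 to 44.5%). That interval holds the 30.0% of all coding TSSs but lies below the 49.2% of H3K4me3-marked ones. Of these 10 genes, CARS1, IARS1, MARS1, VARS1 and YARS1 also had a peak in a replicate without a merged peak. Cytosolic class II genes had 6 of 10, mitochondrial class I genes 5 of 9 and mitochondrial class II genes 5 of 8. Among genes with a merged peak and a peak in every replicate, class I had 4 of 19 and class II 4 of 18. The background of that count was 17.3% of all coding TSSs and 28.4% of H3K4me3-marked ones.

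HA summits lay mostly downstream of the TSS at mitochondrial genes and on either side at cytosolic genes. In replicates 1, 2 and 3 they were downstream at 6 of 7, 7 of 9 and 8 of 10 mitochondrial genes and at 1 of 2, 4 of 8 and 5 of 11 cytosolic genes, a difference that was not tested. The median position over the summits of both compartments was 108, 93 and 93 bp downstream in replicates 1, 2 and 3, a mean of 98.0 ± 8.66 bp (SD, n = 3). Over all TSS peaks the medians were 66, 83 and 95 bp. Replicate 1 placed 7 of its 9 summits downstream, replicate 2 placed 11 of 17 and replicate 3 placed 13 of 21. In replicates 2 and 3 the summit shared by HARS1 and HARS2 was counted for both genes, on opposite sides. Summits at other shared promoters were also included. The downstream minus upstream share averaged 36.3 ± 16.9 percentage points (SD, n = 3), with p = 0.25 in an exact two-sided sign permutation, the smallest possible. Over all coding TSSs with a peak, 55.3%, 56.0% and 58.7% of summits were downstream. These values depended on which TSS was used. From the 5′ end of the gene the downstream excess was 60.8 points and the median position 165.5 bp, and from the nearest TSS of any coding transcript the median position was 73.3 bp.

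Replicates placed the strongest summit at like positions for some genes and on opposite sides of the TSS for others. At VARS2 the summits were 194, 189 and 141 bp downstream, and at IARS2 237, 283 and 134 bp downstream. At TARS2 they were 142 and 125 bp downstream. At GARS1 they were 221 and 159 bp upstream in replicates 1 and 2 and 133 bp downstream in replicate 3. At TARS1 the summit was 108 bp downstream in replicate 1 and 401 and 458 bp upstream in replicates 2 and 3. The wide merged peaks of GARS1, TARS1, WARS2 and YARS2 reached over both sides of the TSS.

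**Figure D3:**
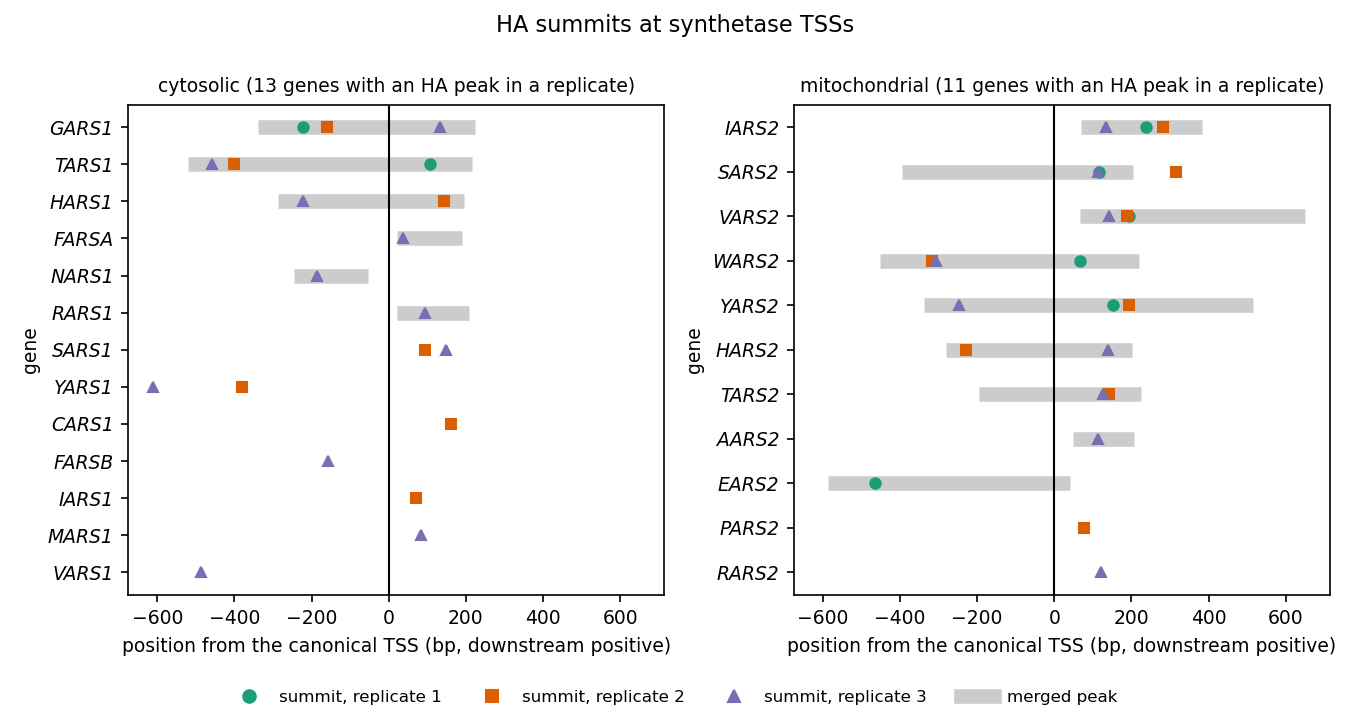
Position of the strongest HA summit from the canonical TSS (bp, downstream positive, horizontal axis) in each replicate for 13 cytosolic and 11 mitochondrial genes with a peak, with grey bars for the merged peak. Circles, squares and triangles stand for replicates 1, 2 and 3. Most mitochondrial summits lie to the right of the TSS and cytosolic summits lie on either side, while the summits of GARS1, TARS1, HARS1, HARS2, WARS2 and YARS2 fall on both sides between replicates.

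The 17 genes with a merged HA peak held 16 distinct merged peaks with a median width of 549.5 bp, against 478 bp over all merged peaks near a TSS. Of the 16, 9 covered the TSS. The 8 peaks found in every replicate had a median width of 637 bp and the 8 missing from a replicate 306.5 bp. The narrowest were those of AARS2 at 159 bp, FARSA at 170 bp, RARS1 at 187 bp and NARS1 at 192 bp, all called in replicate 3 alone.

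Synthetase genes that share a promoter with another coding gene had a merged HA peak at a share near that of other shared promoters. A second coding TSS lay within 1 kb at 9 genes, of which 5 had a merged HA peak (55.6%, interval 21.2 to 86.3%). Among these, HARS1 and HARS2 neighbour each other, and their 1 shared peak was counted for both. The background was 51.8% of all coding TSSs with such a neighbour, and 12 of the 28 synthetase genes without one had a peak. HARS1 and HARS2 started 85 bp apart. SARS2 started 181 bp from MRPS12, which encodes a mitochondrial ribosomal protein. EARS2 lay 377 bp from UBFD1, and its replicate 1 summit, 465 bp upstream of EARS2, fell beyond the UBFD1 TSS. At these promoters an HA peak cannot be assigned to 1 of the genes.

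The 4 sharing genes without a merged peak were KARS1, 108 bp from TERF2IP (a telomere protein gene), RARS2, 148 bp from ORC3 (an origin recognition gene), YARS1, 295 bp from S100PBP, and FARS2, 563 bp from LYRM4. Both YARS1 summits were upstream, at 380 and 612 bp, beyond the S100PBP TSS. VARS1 also had its only summit far upstream, at 487 bp.

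Merged HA peaks away from the canonical TSS overlapped an end of 2 synthetase genes, and both lay at the TSS of a neighbour. At CARS2, 1374 bp of a merged peak of 3165 bp (chr13:111364577-111367741) fell inside the annotated gene, and the peak had 7.05, 11.8 and 6.78-fold in replicates 1, 2 and 3. It was centred 112 bp downstream of the TSS of ING1, a chromatin reader gene, and had H3K4me3 within 1 kb in both lists. At VARS1, 35 bp of a merged peak of 213 bp (chr6:31745117-31745329) reached into the far end of the gene, and the peak had 6.69, 7.66 and 4.01-fold. It was centred 118 bp upstream of the TSS of VWA7, with no H3K4me3 region within 1 kb in either list. At their own canonical TSSs neither CARS2 nor VARS1 had a merged HA peak.

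H3K4me3 regions were narrower in the ProMMP2-3xHA library than in the WT library at 35 of 37 synthetase genes. The median width was 1455 bp (range 333 to 3545 bp) in ProMMP2-3xHA cells and 1995 bp (range 875 to 4166 bp) in WT cells. The median ratio of the widths was 0.811 over the synthetase genes and 0.782 over all coding TSSs with both regions, where 11310 of 12149 were narrower, so narrower regions were not particular to the synthetase genes. By compartment the median ratio was 0.812 over cytosolic genes, 18 of 20 of them narrower, and 0.794 over mitochondrial genes, 17 of 17 narrower. With 1 library in each line, a difference between the lines cannot be told apart from a difference in depth or recovery of these libraries.

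The lowest ratio was at CARS2, whose region covered 333 bp in ProMMP2-3xHA cells (chr13:111358062-111358394) and 1491 bp in WT cells, a ratio of 0.223. MARS1 followed with 986 bp against 1995 bp, a ratio of 0.494. IARS2 had 723 bp against 1285 bp, a ratio of 0.563. Of these, IARS2 had HA peaks in every replicate and CARS2 had none in any list. High ratios were found at AARS1, 2270 bp against 2251 bp (1.01), and MARS2, 3011 bp against 3144 bp (0.958). AARS1 was among the 2 genes that were not narrower in ProMMP2-3xHA cells.

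The widest ProMMP2-3xHA regions were at TARS1 (3545 bp), GARS1 (3078 bp) and MARS2 (3011 bp), of which TARS1 and GARS1 had HA in every replicate and MARS2 had no HA peak. KARS1, also without HA, came next with 3003 bp. The narrowest after CARS2 were at VARS2 (575 bp) and IARS2 (723 bp), which both had HA in every replicate. HA peaks were thus found at both ends of the range. Over the coding TSSs with H3K4me3 in both lists, regions with a merged HA peak were wider than those without. Their medians were 1681 and 1195 bp in ProMMP2-3xHA cells and 2108 and 1643 bp in WT cells. Medians of cytosolic synthetase genes had the other order. In ProMMP2-3xHA cells they were 1455 bp in the 7 with a merged HA peak and 1589 bp in the 13 without. In WT cells they were 1739 and 2251 bp. The ranges overlap, at 757 to 3545 bp and 911 to 3003 bp in ProMMP2-3xHA cells. They were 984 to 4166 bp and 1505 to 3976 bp in WT cells, and the order was not tested. For mitochondrial genes the medians were 1383 and 1382 bp in ProMMP2-3xHA cells and 1888.5 and 1947 bp in WT cells. The median width ratio was 0.829 at the 17 synthetase genes with a merged HA peak and 0.792 at the 20 without. It was 0.811 and 0.747 over the coding TSSs with H3K4me3 in both lists.

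**Figure D4:**
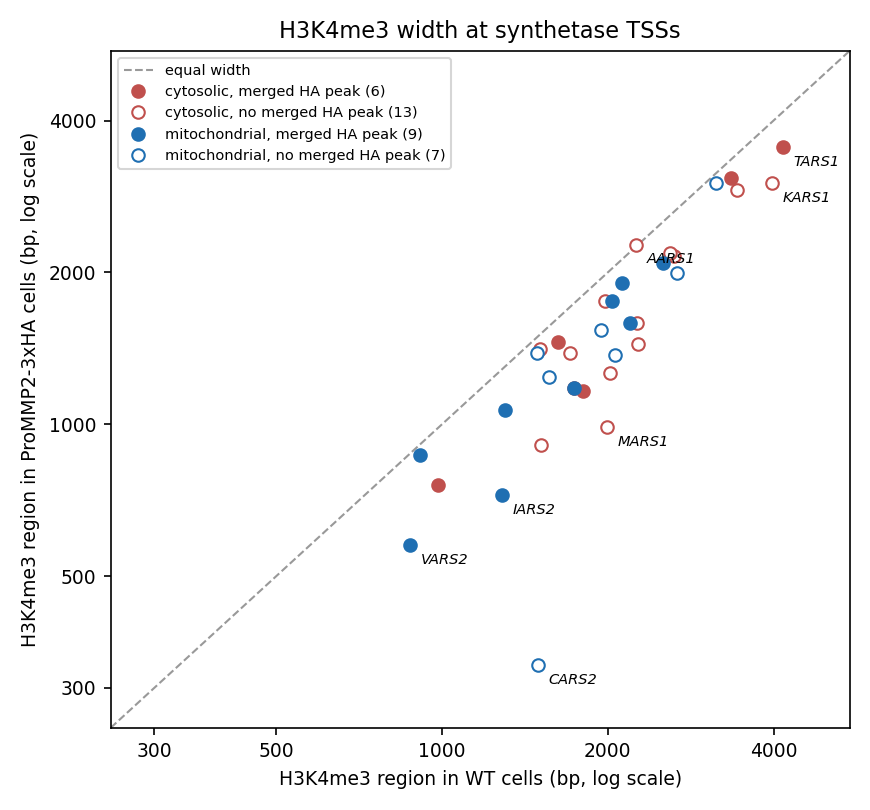
Width of the H3K4me3 region at 35 synthetase TSSs in WT cells (bp, log scale, horizontal axis) against ProMMP2-3xHA cells (bp, log scale, vertical axis), 1 library each, with filled points for genes with a merged HA peak and open points for those without. The dashed line marks equal width. All points but AARS1 lie below it, CARS2 is the farthest at 333 against 1491 bp, and filled points run from VARS2 to TARS1.

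The canonical TSS itself was outside the ProMMP2-3xHA H3K4me3 region at 8 genes. The distance from TSS to region was 4 bp at AARS2, 7 bp at MARS1, 12 bp at IARS2, 15 bp at RARS1, 29 bp at SARS1, 69 bp at CARS2, 89 bp at VARS2 and 387 bp at WARS1. In the WT list 3 were outside, by 2 bp at RARS1, 4 bp at SARS1 and 23 bp at VARS2. At WARS1 the ProMMP2-3xHA region (chr14:100842071-100843511) lay upstream of the canonical TSS, whose promoter holds the TATAAA printed above, a GC content of 49.7% and 3 CpG dinucleotides. The WARS1 gene has 26 annotated transcript starts, more than any other synthetase gene.

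A list of 16 other genes around tRNA charging was scored the same way. It takes in complex scaffolds and genes of amidation, editing, formylation, selenocysteine, CCA addition and tRNA modification. TARS3, a threonyl enzyme whose symbol fell outside the rule, is also among them. All 16 had H3K4me3 in both lists and 11 had a merged HA peak, against the 30.0% of all and 49.2% of H3K4me3-marked coding TSSs given above. A merged peak and a peak in every replicate were found at 4 of the 16, against 17.3% of all and 28.4% of H3K4me3-marked coding TSSs. Shared promoters were not scored for these genes, so a peak may also belong to a neighbouring gene. AIMP2, a scaffold of the multi-synthetase complex, had 6.13, 7.68 and 7.28-fold, above every synthetase gene in replicates 2 and 3. GATC, a subunit of the mitochondrial amidotransferase that makes glutaminyl-tRNA, had 5.34, 6.04 and 4.58-fold. AARSD1, an editing enzyme, had 5.05, 5.31 and 3.25-fold, and TRMT5, a tRNA methyltransferase, had 3.27, 4.49 and 3.27-fold.

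The scaffold gene AIMP1 had a merged peak and 5.51-fold in replicate 3 alone, and the third scaffold gene, EEF1E1, had none. GATB had 4.16-fold in replicate 1 alone, while QRSL1, the remaining amidotransferase subunit, had none. MTFMT, which formylates the mitochondrial initiator tRNA, had 7.36-fold in replicate 3 alone. PSTK, DTD1, TRNT1 (the CCA-adding enzyme) and PUS1 (a pseudouridine synthase) had merged peaks with summits in replicates 2 and 3, of 3.37 and 3.67-fold, 7.39 and 4.70-fold, 4.62 and 3.60-fold, and 3.62 and 4.50-fold. DTD2 had 3.67-fold in replicate 3 without a merged peak, and TARS3, EEF1E1, QRSL1 and SEPSECS had no HA peak in any list.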

How the data were processed

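Native ChIP-Seq lists of HA and H3K4me3 in U2OS cells were used, 6 lists in all. Per the labels and the study's methods, the authors trimmed reads with Trim Galore 0.6.0, aligned them to hg19 (GRCh37) with Bowtie2 2.3.5.1, filtered them with SAMtools 1.9, removed duplicates with Picard and called peaks with MACS2 3.0.0a6 at a q-value of 0.05. The deposited HA replicate lists give peak intervals and summits, a fold enrichment (a ratio), −log10 p-values and q-values and a score of the q-value. The deposited merged HA list and both H3K4me3 lists give intervals only, made by the authors from narrow and broad calls, so their widths carry no height.

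TSSs were those of Ensembl canonical transcripts in GENCODE 44 mapped to GRCh37 (281 coding genes without such a tag were placed at the 5′ end), and a window of 1 kb was used. Fragment numbers at summits were solved from the fold enrichment and p-value, and the solver and the window search were tested on simulated data. Shares have 95% Clopper-Pearson intervals, and replicate means were tested by exact two-sided sign permutation. Promoter letters were read from the GRCh37 genome. Alternatives covered the TSS definition, the window, the q-value, the H3K4me3 width, shared promoters, leaving out GARS1 and KARS1, and leaving out each replicate. The synthetase genes and the lists beside them were chosen with earlier results of these data known. Genes named with values were those without a merged HA peak, those whose merged peak was missing from a replicate, up to 5 in each compartment with the highest mean fold among those in every replicate, those sharing a promoter, pairs that differ, those with a peak elsewhere in the gene, and the 3 extremes of H3K4me3 width and width ratio; all others named were chosen after their values were seen. The values of 2 of the synthetase genes, which the rule also took in and which every count includes, are not reported here. No intensity of the H3K4me3 libraries was analysed here. Python 3.11.15, numpy 2.4.6, scipy 1.17.1 and matplotlib 3.10.9 were used.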

Additional observations from a re-analysis of the deposited data

How the results depend on the processing

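Of 54 alternatives of results with no test, 50 stayed within the error of the reported value. For shares this error was the wide counting interval over genes, so staying within it says little of stability. With the TSS required inside the interval, the merged HA share fell from 35.0% to 20.0% of cytosolic genes. It fell from 58.8% to 35.3% of mitochondrial genes, and both falls count as within error. In another 34 alternatives of the 3 sign tests the mean kept its direction, but no p below 0.25 can be had with 3 replicates or below 0.5 with 2, so they say nothing of a threshold. The median summit position of 98.0 bp became 165.5 bp from the 5′ end of the gene and 73.3 bp from the nearest TSS of any coding transcript. With the TSS required inside the interval, the share of genes with a merged HA peak and a peak in every replicate fell from 21.6% to 2.70%, and the share with ProMMP2-3xHA H3K4me3 from 100% to 78.4%. The lists were the same in each case and only the TSS position or the rule of overlap differed. What lies behind these shifts was not tested. The cytosolic minus mitochondrial share of −16.0 points ranged from −8.38 without replicate 1 to −22.1 without replicate 3. It was −1.27 points with the TSS inside the interval (exact permutation p = 0.75) and −28.5 from the 5′ end of the gene. The log2 ratio of median folds, −0.33, was −0.69 with the TSS inside the interval and −0.21 at a q-value of 0.001, and the downstream excess of 36.3 points was 60.8 from the 5′ end of the gene. The share in every replicate was 13.5% and 10.8% at q-values of 0.01 and 0.001. With promoters of 500 bases before to 100 after the TSS, 14 of 16 motif shares stayed within error, while GGGCGG went from 70.0% to 90.0% of cytosolic and CCAAT from 58.8% to 82.4% of mitochondrial promoters. The 3 sign tests compared values within each HA replicate. Pairing of HA with H3K4me3 libraries was not possible, because the 3 HA replicates share only replicate number 1 with the other groups. Synthetase summits held 26 to 155 fragments, and the part of depth in calls missing from a replicate was not tested.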
